A study of Danio rerio with 4 samples.

Results

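The regions described here are 648 H3K4me3 sites that were listed as peaks in both DN and Ctrl amputated zebrafish ventricles but were narrower in DN. They were selected on peak width. A DN and a Ctrl peak that overlapped by 1 bp or more formed a pair when neither overlapped any other peak of the other list. A pair was kept when the DN peak was at most 0.67 times as wide as the Ctrl peak and both were under 3000 bp. Chromosomes 1 to 25 were used, without chromosome 4 from 27000000 on. The lists held 11709 overlaps of a DN and a Ctrl peak, of which 10030 were such exclusive pairs and 9118 of these met the limits on width and position.

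DN hearts carried the transgene *ubi:loxp-DsRed-STOP-loxp-DN-xBrg1* together with *kdrl:CreER*, and Ctrl hearts carried the first transgene alone. Adult fish of both genotypes received 4-hydroxytamoxifen (4-HT) during the 3 days that preceded amputation of the ventricle, and chromatin was taken at 7 days post-amputation (dpa). In DN hearts 4-HT lets CreER, expressed from the endothelial *kdrl* promoter, remove the DsRed-STOP cassette, so that dominant-negative *Xenopus* Brg1 is made from the *ubi* promoter in endothelial cells. In Ctrl hearts the cassette stays in place. Whole ventricles were used, so the chromatin also came from cells in which *kdrl* is not active. Fewer cells with the mark at a site and less mark per cell cannot be told apart in such samples. Each genotype had 1 H3K4me3 library from a pool of about 25 hearts. No test between DN and Ctrl was possible, and intervals below are 95% exact intervals that cover counting error only, with peaks counted as units although they are not replicates.

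H3K4me3 is histone H3 trimethylated at lysine 4. The mark is placed by methyltransferases of the SET1 and MLL family and removed by demethylases of the KDM5 family. It is found mainly on nucleosomes on either side of the start of active genes, and a peak there usually spans a few nucleosomes. Brg1 is the ATPase of the SWI/SNF complex, which slides and evicts nucleosomes. Peaks were called in a broad mode, which links nearby enriched regions under a looser cutoff. The width of a listed peak is thus the span of the linked regions, and it can include stretches below the stricter threshold. It depends on the level of the mark as well as on its spread. Whether a stretch lost in DN was a linked region or the edge of a continuous region was not tested.

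The paired peaks as a whole went the other way. Of the 9118 pairs, 5040 (55.3%) were wider in DN by the same factor, and the 648 narrower pairs were 7.11%. Since the rule used the widths, this share only describes how many sites it chose. The median DN to Ctrl width of the other pairs was 1.72. No listed peak was under 200 bp in either list, so a Ctrl peak had to be wide enough to allow narrowing. In 7271 pairs it was, and 8.91% of those were narrower in DN.

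**Figure D1:**
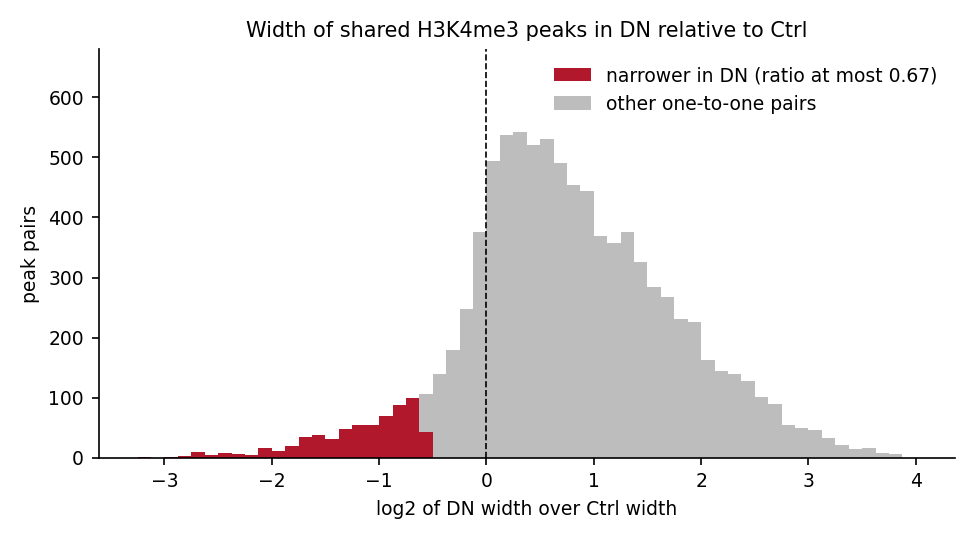
Histogram of the 9118 paired peaks by the log2 of DN width over Ctrl width, with pairs narrower in DN in red and other pairs in grey. The 648 narrower pairs form a thin left tail of a distribution that lies mostly to the right of 0.

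The narrower sites had a median width of 343.5 bp in DN (25th to 75th percentile 233.8 to 517.2) and of 816 bp in Ctrl (584 to 1199.5). In 86 of the 648 pairs the DN peak was at the narrowest listed width of 200 bp. The median DN to Ctrl width was 0.49. In 27 pairs it was at most 0.2, in 63 it was between 0.2 and 0.3, and in 134 it was between 0.6 and the limit. Together the DN peaks covered 275.1 kb and their Ctrl partners 617.0 kb. A DN peak covered a median of 38.0% of the bases of its Ctrl partner, and the lowest value was 0.44%.

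The limit of 0.67 falls on a slope and not in a gap. The pair just inside it with the highest ratio lay on chromosome 15 and was 225 bp wide in DN (201783 to 202007) and 336 bp in Ctrl (201610 to 201945). The next one inside, on chromosome 2, was 272 bp wide in DN and 407 bp in Ctrl. Just outside were a pair on chromosome 17 with 358 bp in DN and 534 bp in Ctrl, and a pair on chromosome 21 with 208 bp in DN and 310 bp in Ctrl. At these narrow sites a shift of a few bases decides membership.

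How many pairs the rule could choose depended on the Ctrl width. The share of pairs that were narrower in DN was 4.95% (interval 4.08 to 5.94) for Ctrl peaks of 300 to 500 bp, 8.95% (7.73 to 10.3) for 500 to 750 bp, 11.7% (9.96 to 13.6) for 1000 to 1500 bp and 16.5% (11.6 to 22.5) for 2000 to 3000 bp. The widest class held only 194 pairs, of which 32 were narrower in DN. No DN peak was under 200 bp, which left little room for narrowing in the narrow classes. In the widest class the limit of 3000 bp left almost no room for a pair wider in DN by the same factor.

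Which side was lost was then examined. An end was counted as lost when the DN boundary lay 100 bp or more inside the Ctrl boundary. The lists carry no strand, so ends are named by coordinate. Narrowing was one-sided at most sites. Of the 648 sites, 249 lost the lower-coordinate end only (38.4%, interval 34.7 to 42.3) and 258 lost the higher-coordinate end only (39.8%, interval 36.0 to 43.7). Both ends were lost at 124 sites (19.1%, interval 16.2 to 22.4), and neither end moved in by that much at 17 sites (2.62%, interval 1.54 to 4.17).

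Losses at the lower and the higher end were about equally frequent. Among the 507 sites with 1 lost end, the lower end was lost at 49.1% (interval 44.7 to 53.6). In bases, 385.0 kb of Ctrl peak had no DN peak over it, 185.9 kb at the lower ends and 199.1 kb at the higher ends, so that 48.3% of lost bases were at the lower end. More sites lost the higher end on 13 chromosomes, more lost the lower end on 11, and on 1 the numbers were equal. Sites that lost both ends had a median Ctrl width of 1204 bp (interval 1045 to 1351). It was 765 bp (714 to 821) for loss of the lower end and 781 bp (706 to 852) for loss of the higher end. This order is partly built in, since no DN peak was under 200 bp and 100 bp had to be lost at each end. The narrowest Ctrl peak was 505 bp for loss of both ends, 304 bp for the lower end and 301 bp for the higher end.

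One-sided loss was often accompanied by a small shift outwards at the other end. The DN peak lay wholly inside the Ctrl peak at 300 sites (46.3%, interval 42.4 to 50.2), and at the other 348 it reached past a Ctrl end. All of these 348 were among the 507 sites with 1 lost end. The width rule all but fixes this, since a DN peak past 1 Ctrl end must stop well short of the other. At the same 348 sites, 68.6% of the 507, the kept end had moved outwards, by a median of 85.5 bp. Over all 507 the lost end had moved in by a median of 481 bp. The kept end was within 50 bp of the Ctrl end at 209 of them (41.2%, interval 36.9 to 45.7). At 153 sites the DN peak reached past the Ctrl peak by 100 bp or more, and there the DN peak was displaced as well as narrower. DN peaks covered 43.1 kb beyond the Ctrl ends in all, against the 385.0 kb lost.

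**Figure D2:**
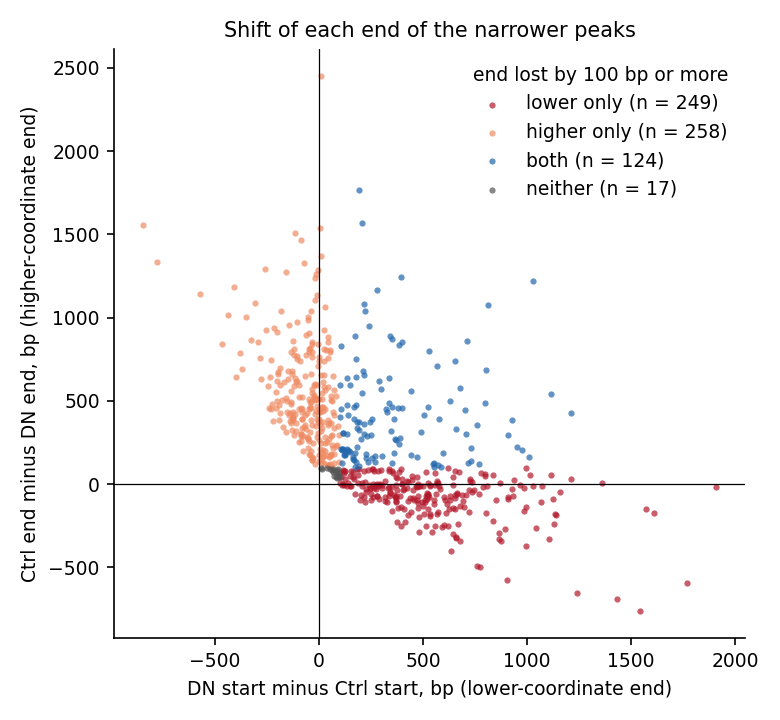
Each point is 1 of the 648 sites, plotted by how far the DN boundary lay inside the Ctrl boundary at the lower-coordinate end (x axis, bp) and at the higher-coordinate end (y axis, bp), and coloured by the ends that moved in by 100 bp or more. Most points lie along either axis, and those below 0 on an axis are sites where DN reached past Ctrl at that end.

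The ends of the pairs wider in DN were counted in the same way. Of those 5040 pairs, 47.5% (interval 46.2 to 48.9) gained 100 bp or more at 1 end only and 51.9% (50.5 to 53.3) at both ends. Of the narrower sites, 78.2% (interval 74.9 to 81.4) lost 100 bp or more at 1 end only. At 153 of these the DN peak also reached past the other Ctrl end by 100 bp or more, so both ends had changed there. The shares with 1 lost or 1 gained end depend on the distance asked for, which was not scaled to the size of the change. Median widths were 435 bp in Ctrl and 1281 bp in DN for wider pairs, against 816 and 343.5 bp for narrower sites. The shares of these sets are thus not measured alike. When any inward shift counted as a loss, 54.8% (interval 50.9 to 58.7) of narrower sites lost 1 end only. These 355 sites include the 348 at which the DN peak reached past the other Ctrl end. When any outward shift counted as a gain, 15.9% (14.9 to 17.0) of wider pairs gained at 1 end only. Shifts in the other direction were not counted. When more than 200 bp was asked for, the shares were 77.3% (interval 73.9 to 80.5) and 66.1% (64.8 to 67.4).

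The site that lost most lay on chromosome 2. There the DN peak spanned 14005806 to 14006241 (436 bp) and the Ctrl peak 14005795 to 14008692 (2898 bp). The lower ends were 11 bp apart, whereas 2451 bp were missing in DN at the higher end. The fold over the genome-wide background was 17.4 for the DN peak and 9.81 for the Ctrl peak. Each is a mean over its own peak, and the widths differ, so these folds are not measured alike. The peak listed in DN was thus short, strong and at the lower edge of a broad Ctrl peak.

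The other sites with the largest losses had much lower folds than this one in both lists. On chromosome 15 a DN peak of 492 bp (14749483 to 14749974) lay in the middle of a Ctrl peak of 2736 bp (14748456 to 14751191), with 1027 bp lost at the lower and 1217 bp at the higher end, at a fold of 3.79 in DN and 3.90 in Ctrl. On chromosome 12 a DN peak of 251 bp (22701527 to 22701777) lay in a Ctrl peak of 2209 bp (22701333 to 22703541). This was the lowest DN to Ctrl width of all sites, 0.11. On chromosome 8 the DN peak of 366 bp (39419391 to 39419756) kept only the higher end of a Ctrl peak of 2259 bp (39417483 to 39419741) and lost 1908 bp at the lower end.

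Next on this list were a site on chromosome 6 and a site on chromosome 24. On chromosome 6 the DN peak of 484 bp (23459319 to 23459802) was at the lowest fold in the DN list, 2.87, and 1888 bp of a Ctrl peak of 2372 bp at a fold of 3.35 were lost. On chromosome 24 the DN peak was 907 bp (2924650 to 2925556) and the Ctrl peak 2687 bp wide, and 1571 of the 1780 bp lost were at the higher end. The next lowest width ratios were 0.14 on chromosome 7, with 201 bp in DN (64895109 to 64895309) and 1485 bp in Ctrl, and 0.14 on chromosome 18, with 211 bp in DN (8116840 to 8117050) and 1509 bp in Ctrl.

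The strength of the sites was next compared by rank, since the fold and the −log10 q of a peak belong to the list they were called in. A percentile of 100 is the strongest peak of a list by −log10 q. These values are means over a peak, so they are not independent of its width. The narrower sites ranked below the other pairs in both lists. Their median percentile was 55.9 in the DN list (interval 51.4 to 58.8) and 41.3 in the Ctrl list (38.4 to 45.2). For the other pairs it was 82.5 in the DN list (82.0 to 83.0) and 61.7 in the Ctrl list (60.6 to 62.6). The median −log10 q of the narrower sites was 2.24 in DN and 1.85 in Ctrl, and the median fold was 3.42 in DN and 3.53 in Ctrl. The lowest fold listed was 2.87 in DN and 3.15 in Ctrl, whereas the lowest −log10 q listed was 1.31 in DN and 1.20 in Ctrl.

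The weak end of the lists was over-represented. Of the 648 narrower sites, 211 were in the weaker 50% of both lists (32.6%, interval 29.0 to 36.3), against 10.2% (9.58 to 10.9) of the other pairs. Only 16 were in the stronger 10% of both (2.47%, interval 1.42 to 3.98), against 10.6% (9.95 to 11.3) of the other pairs. A −log10 q of at least 4 in both lists was reached by 29 sites (4.48%, interval 3.02 to 6.36) and by 13.0% (12.3 to 13.7) of the other pairs. Pairs of stable width, in which the narrower peak was at least 0.8 times as wide as the other, had nearly the same Ctrl width as the narrower sites, with a median of 773 bp (interval 738 to 805), but a median percentile of 81.6 in DN and 67.6 in Ctrl. Their DN width was not matched, with a median of 799 bp against 343.5 bp at the narrower sites. The DN percentiles are thus compared across the width that the rule used.

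Narrower sites ranked lower in DN than other pairs of the same Ctrl rank. The rule chose narrow DN peaks and DN width was not matched, so the choice itself can lower the DN rank. Among Ctrl peaks in the strongest 20% of their list, the median DN percentile was 79.0 for narrower sites and 93.4 for the other pairs. Among Ctrl peaks in the weakest 20% it was 43.9 for narrower sites and 61.4 for the other pairs, and narrower sites were also lower in the 3 classes between. The share of pairs that were narrower was smaller in each stronger class of Ctrl peaks, with 13.2% (interval 11.3 to 15.3) in the weakest 20%, 10.5% (9.04 to 12.2), 7.28% (6.15 to 8.56), 4.98% (4.09 to 5.99) and 3.90% (3.17 to 4.74) in the strongest 20%. By DN strength it was 22.5% (interval 18.6 to 26.9) in the weakest 20% and 2.06% (1.67 to 2.5) in the strongest.

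**Figure D3:**
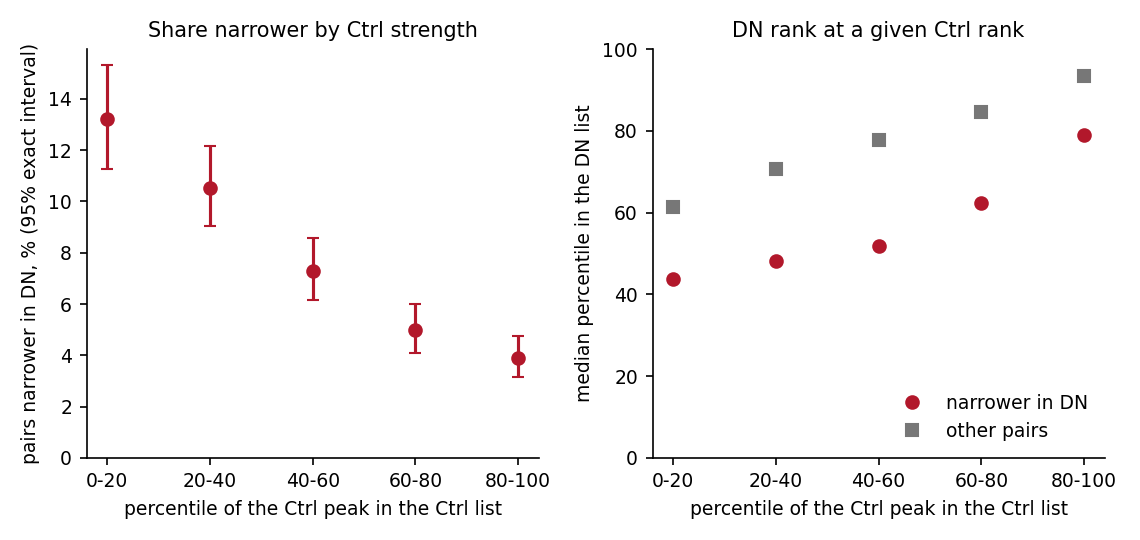
Left, the share of pairs narrower in DN (percent, points with 95% exact intervals) by the percentile of the Ctrl peak in the Ctrl list. Right, the median percentile in the DN list of narrower sites (red circles) and of other pairs (grey squares) in the same classes, where narrower sites lie below the others in all 5 classes.

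The sign of the change in rank depended on the set that was ranked. Within the whole lists, the narrower sites stood higher in DN than in Ctrl, by a median of 4.37 percentile points (interval 2.36 to 8.34), and 384 of 648 (59.3%) were higher in DN. The DN list is the longer one, with 34889 peaks against 17234 in Ctrl. The other pairs stood high in it, at a median percentile of 82.5, against 55.9 for the narrower sites. The median change in rank for the other pairs was 13.8 points (interval 13.1 to 14.6) and for pairs wider in DN 16.9 points (15.9 to 17.9). Ranked among the 9118 pairs only, the narrower sites stood lower in DN by a median of 9.37 points (−9.37, interval −12.0 to −7.16), while the other pairs had a median of 1.13 points. Only 33.8% (interval 30.2 to 37.6) of the narrower sites were then higher in DN, against 52.6% (51.6 to 53.7) of the other pairs. The Spearman rho between the width ratio and the change in rank within the whole lists was 0.036 over the 648 sites, which share libraries and depth, while the change itself ran from −77.0 to 76.9 points.

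Ranks in DN and Ctrl were also less alike at narrower sites. The Spearman rho between the DN and the Ctrl percentile was 0.39 over the narrower sites, 0.52 over pairs wider in DN and 0.62 over pairs of stable width. The range of values in each set differs and was not adjusted for.

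A few narrower sites were strong in both lists. The strongest lay on chromosome 17, where a DN peak of 388 bp (39905506 to 39905893) at a fold of 19.1 and a −log10 q of 58.0 overlapped a Ctrl peak of 866 bp (39905031 to 39905896) at a fold of 22.6 and a −log10 q of 72.2. The higher ends were 3 bp apart, and 475 bp were lost at the lower end. A site on chromosome 3 lost both ends, with a DN peak of 1021 bp (46904882 to 46905902, fold 8.52) inside a Ctrl peak of 2029 bp (46904176 to 46906204, fold 11.2). It stood alone, with the nearest other DN peak 139109 bp and the nearest other Ctrl peak 131706 bp from the Ctrl peak.

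The other strong sites lost mainly 1 end or were cut on both sides. On chromosome 23 a DN peak of 257 bp (16005959 to 16006215, fold 8.16) kept the lower end of a Ctrl peak of 921 bp (16005948 to 16006868, fold 11.2). On chromosome 5 a DN peak of 389 bp (53356488 to 53356876, fold 7.69) kept the higher end of a Ctrl peak of 1277 bp (53355653 to 53356929, fold 7.48). On chromosome 11 a DN peak of 555 bp (15130811 to 15131365, fold 8.45) lay within a Ctrl peak of 1788 bp (15130470 to 15132257, fold 7.79), with 341 bp lost at the lower and 892 bp at the higher end. The sixth of this group is the site on chromosome 2 described above. Their folds were higher in Ctrl at 3 of the 6 sites and higher in DN at the other 3, each in its own list and over its own width.

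The 3 largest falls in rank within the whole lists were as follows. The largest was on chromosome 16, where a DN peak of 252 bp (20119750 to 20120001) at the 10.3 percentile overlapped a Ctrl peak of 395 bp at the 87.3 percentile. Falls nearly as large were found on chromosome 8, with the 22.8 percentile in DN (37818001 to 37818218) and the 91.3 percentile in Ctrl, and on chromosome 3, with the 9.87 percentile in DN (39443596 to 39443795) and the 77.2 percentile in Ctrl. In all 3 the DN peak was no wider than 252 bp. Narrow DN peaks were common under the width rule, with 185 of the 648 under 250 bp. Ranked among the pairs only, the site on chromosome 8 fell most, by 82.9 points, against 80.8 points on chromosome 16.

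At the 3 largest rises by rank in the whole lists the DN peak was displaced, as it was by 100 bp or more at 153 of the 648 sites. On chromosome 2 the DN peak (44781325 to 44781713) was at the 79.99 percentile and its Ctrl partner (44781566 to 44782167), at the lowest −log10 q of the Ctrl list, at the 3.08 percentile. The DN peak began 241 bp before the Ctrl peak and stopped 454 bp short of its end. On chromosome 11 the DN peak (1396284 to 1396589) was at the 90.2 percentile and the Ctrl peak at the 15.3 percentile, and on chromosome 3 the DN peak (39695669 to 39695997) was at the 93.0 percentile and the Ctrl peak at the 20.8 percentile. Ranked among the pairs only, the rise was 46.3 points on chromosome 2, 62.3 on chromosome 11 and 66.1 on chromosome 3, so that their order was turned round. The DN peaks on chromosomes 11 and 3 reached past the Ctrl peak by 224 and 295 bp. Such pairs share only part of their length, and at these sites the rise in rank and the loss of width concern partly different bases.

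Narrower sites were found on all 25 chromosomes. The median share over chromosomes was 7.14% of pairs. It was highest on chromosome 6, where 47 of 388 pairs were narrower in DN (12.1%, interval 9.04 to 15.8), followed by chromosome 25 with 27 of 285 (9.47%, interval 6.34 to 13.5). It was lowest on chromosome 4, where only the part before 27000000 was used and 6 of 217 pairs were narrower (2.76%, interval 1.02 to 5.92). With the rest of chromosome 4 kept, 59 of 497 pairs were narrower (11.9%, interval 9.16 to 15.0). From 27000000 on, 53 of 280 pairs were (18.9%, interval 14.5 to 24.0), so the low share is that of the first part alone. Within the first part it was not even. Of its 6 narrower pairs, 4 lay from 25000001 on, among 18 pairs (22.2%, interval 6.41 to 47.6). The next lowest share was on chromosome 10, with 11 of 292 (3.77%, interval 1.90 to 6.64). Chromosomes 6, 4 (first part) and 10 were the ones whose interval did not include the share of all chromosomes; the 25 intervals were not adjusted for their number. Without chromosome 6 the share of all pairs was 6.88% (interval 6.36 to 7.44). All 25 chromosomes had more pairs wider in DN than narrower, and the share of wider pairs on chromosome 6 was 53.1%, close to that of all chromosomes.

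**Figure D4:**
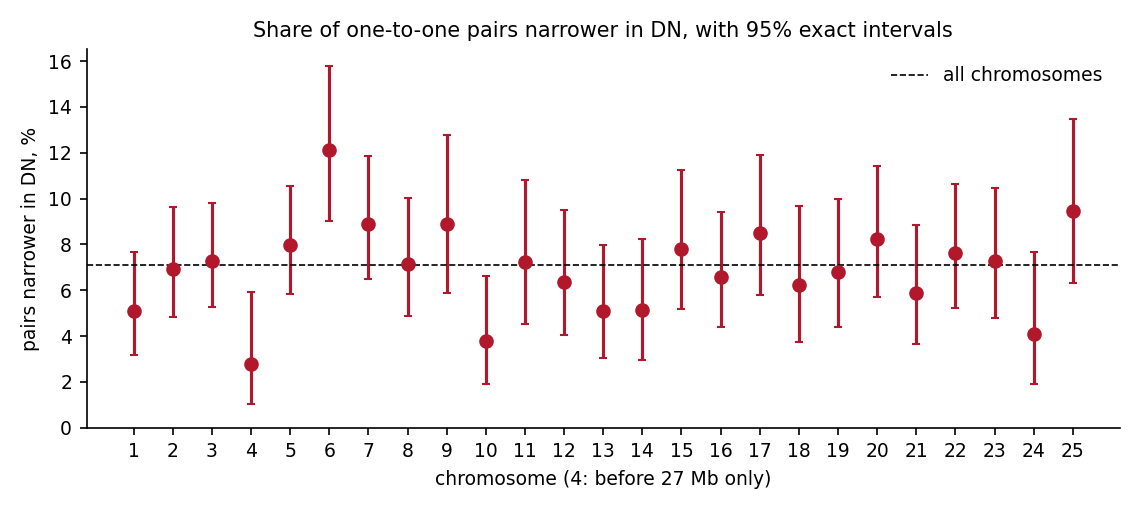
Share of pairs narrower in DN (percent, with 95% exact intervals) on each chromosome, with the share over all chromosomes as a dashed line. Chromosome 6 lies above the line and chromosomes 4 and 10 below it, and the other intervals cross it.

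Chromosome ends held no larger share of the narrower sites. Of the 648, 85 lay within 2 Mb of the first or last listed peak of their chromosome (13.1%, interval 10.6 to 16.0), against 12.2% (11.5 to 13.0) of the other pairs. In windows of 5 Mb, 222 of the 272 windows with a pair held a narrower site. The largest number, 15, was in the first window of chromosome 22, which also held 198 pairs. The share was highest on chromosome 8 from 35000001 to 40000000, with 10 of 35 pairs (28.6%, interval 14.6 to 46.3). Next were chromosome 7 from 60000001 to 65000000, with 7 of 25 (28.0%, interval 12.1 to 49.4), and windows on chromosome 18 from 30000001 to 35000000 and on chromosome 20 from 10000001 to 15000000, with 7 of 26 each (26.9%, interval 11.6 to 47.8). They were followed by chromosome 6 from 20000001 to 25000000, with 9 of 38 (23.7%, interval 11.4 to 40.2). The adjoining window of chromosome 6, from 15000001 to 20000000, held 8 of 35 (22.9%, interval 10.4 to 40.1). These windows are named because they stood out, and they were chosen after their values were seen.

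Narrower sites tended to follow each other in the order of pairs along a chromosome. The next pair along the chromosome was narrower too after 87 of 645 narrower sites (13.5%, interval 10.9 to 16.4), against 558 of 8448 other pairs (6.61%, interval 6.09 to 7.16). The shares were then split by the distance to the next pair. Where the next pair was under 10 kb away, it was narrower after 37 of 174 narrower sites (21.3%, interval 15.4 to 28.1) and after 136 of 1641 other pairs (8.29%, interval 7.00 to 9.73). At 10 to 100 kb the shares were 9.75% (interval 6.28 to 14.3) and 6.71% (5.91 to 7.58), and their intervals overlapped. Beyond 100 kb they were 11.5% (interval 7.71 to 16.3) and 5.63% (4.85 to 6.48), and these intervals did not overlap. The shares thus also differed beyond 100 kb, but not clearly at 10 to 100 kb. Ctrl width and Ctrl rank, with which the share of narrower pairs varied, were not matched here. The pair after a narrower site had a median DN to Ctrl width of 1.37, against 1.65 after other pairs.

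Other Ctrl peaks were nearer to the narrower sites. Other DN peaks were nearer by the share within 1 kb but not by the median. The median distance to the nearest other Ctrl peak was 5326.5 bp (interval 4293 to 6739) at narrower sites and 12596.5 bp (12154 to 13235) at the other pairs. To the nearest other DN peak it was 2866 bp (interval 2323 to 3552) at narrower sites and 2780.5 bp (2681 to 2899) at the other pairs. Distances run from the ends of the Ctrl peak, so those to DN peaks also depend on the DN width used for selection. Another Ctrl peak lay within 1 kb of the Ctrl peak at 14.0% of narrower sites (interval 11.5 to 17.0). It did so at 9.20% (8.0 to 10.5) of stable pairs and at 5.41% (4.9 to 5.9) of the other pairs. Another DN peak lay that near at 23.8% of narrower sites (interval 20.5 to 27.2). For stable pairs this share was 20.7% (19.0 to 22.5) and for the other pairs 13.7% (13.0 to 14.5). Such shares also depend on the pairing, since a DN peak wide enough to reach a second Ctrl peak formed no pair. The nearest other Ctrl peak was absent from DN at 33.6% of narrower sites (interval 30.0 to 37.4) and at 29.7% (28.7 to 30.6) of the other pairs, and these intervals overlapped. The nearest other DN peak was absent from Ctrl at 56.5% of narrower sites (interval 52.6 to 60.3) and at 69.6% (68.6 to 70.6) of the other pairs. At sites with 1 lost end, another Ctrl peak lay within 1 kb on the lost side at 7.89% (interval 5.70 to 10.6) and on the kept side at 6.90% (4.86 to 9.47). For DN peaks these shares were 17.0% (interval 13.8 to 20.5) on the lost side and 9.27% (6.89 to 12.1) on the kept side. No 2 peaks of a list were under 601 bp apart, which leaves less room for a second DN peak on the kept side, so these last shares are not measured alike.

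Runs of narrower sites under 50 kb apart were then listed, a choice made after the values were seen. Of the 648 sites, 504 stood alone, 43 runs held 2 sites and 17 runs held 3 or more. The longest run lay on chromosome 17 from 39902325 to 39947302 and included the strongest narrower site. In 45.0 kb it held 10 pairs, of which 6 were narrower in DN and 0 were wider by the same factor. The DN peaks of this stretch numbered 11 and covered 11.9 kb, and the Ctrl peaks numbered 12 and covered 15.3 kb. Such totals include the sites chosen for a narrower DN peak, so lower DN coverage is built into every run named here. Both lists were strong there, with a median percentile of 93.6 in DN and 99.0 in Ctrl.

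The 6 narrowings on chromosome 17 differed in side. From the lower coordinate on, the first site was 992 bp wide in DN and 1951 bp in Ctrl and lost the lower end, as did the strongest site next to it. The third was 204 bp wide in DN and 326 bp in Ctrl and lost 75 bp at the lower and 47 bp at the higher end. The fourth was 247 bp wide in DN and 1056 bp in Ctrl and lost 841 bp at the higher end. The fifth was 300 bp wide in DN and 524 bp in Ctrl, and the last was 200 bp in DN and 457 bp in Ctrl, and both lost mainly the higher end. The percentile of the last site was 68.3 in DN and 98.1 in Ctrl. The broad peaks between them had nearly the same limits in both lists.

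**Figure D5:**
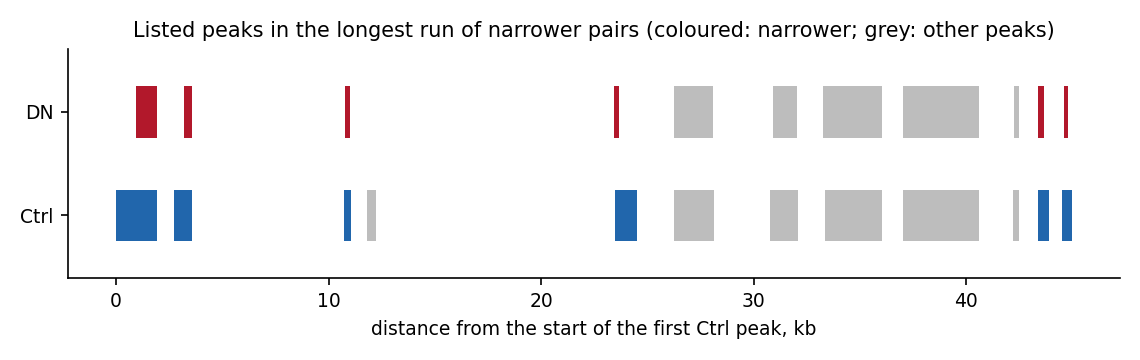
Map of the listed peaks in the run on chromosome 17, with DN above and Ctrl below, drawn to scale in kb from the start of its first Ctrl peak. The 6 pairs narrower in DN are coloured and the other peaks are grey, and the DN blocks of the coloured pairs are shorter than their Ctrl partners.

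Runs of 4 sites lay on chromosomes 3, 6, 18 and 19. On chromosome 6 all 4 pairs from 19998322 to 20029985 were narrower in DN, with widths of 1052, 283, 546 and 1026 bp in DN against 1899, 1499, 1659 and 1685 bp in Ctrl. The DN percentiles there were 67.2, 69.1, 81.9 and 80.6 and the Ctrl percentiles 69.4, 85.6, 88.9 and 94.8. Each of these 4 sites thus ranked lower in DN. On chromosome 18 from 31393715 to 31471337, 4 of 5 pairs were narrower and 8 of the 13 Ctrl peaks of the stretch had no DN partner, against 5 of 10 DN peaks with no Ctrl partner. There DN peaks covered 6.21 kb and Ctrl peaks 12.98 kb. Some of these narrower sites were displaced as well. The DN peak from 31438865 to 31439700 reached 691 bp past its Ctrl partner, and that from 31470862 to 31471502 reached 165 bp past.

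The run on chromosome 18 was the weakest of the 5 in both lists, with a median percentile of 14.3 in DN and 39.3 in Ctrl. The runs on chromosomes 19 and 3 were also weaker than those on chromosomes 17 and 6, with median DN percentiles of 54.4 and 34.4 and median Ctrl percentiles of 45.2 and 53.9. On chromosome 19 from 19902078 to 19953541, 4 of 5 pairs were narrower, and DN peaks covered 5.30 kb against 8.86 kb in Ctrl. On chromosome 3 from 56669820 to 56695826, 4 of 5 pairs were narrower, 1 was wider, and DN peaks covered 3.06 kb against 4.009 kb in Ctrl. These totals again include the chosen sites, and the coverage of the other peaks alone was not compared. Genes at these positions were not looked up, since no annotation of GRCz11 was used here. Input libraries were not used here, and local signal in the input was not compared with the losses.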

How the data were processed

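H3K4me3 ChIP-seq peak lists from 1 DN and 1 Ctrl library were used, and the 2 input libraries were not used here. The authors trimmed reads with Trimmomatic 0.39, aligned them to GRCz11 with STAR 2.7.8a keeping unique alignments, removed duplicates with Picard 2.25.0, and drew equally many read pairs per condition. Broad peaks were called with MACS2 at a q-value of 0.0001 without a model or local background. The lowest −log10 q listed lies under that threshold in both lists. The broad mode of MACS2 has a second, looser cutoff for the regions it links, and its value, and whether input entered the call, are not given in the sources used here. The deposited values are a fold over the background of the whole genome (a ratio), the −log10 p, the −log10 q and a score, which in all but 1 peak was the −log10 q times 10 without its decimals. Read counts per peak or library were not used here, so depth behind a peak is unknown.

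Pairs, ends and percentiles (ties averaged) were computed with Python 3.11.15, numpy 2.4.6, pandas 2.3.3 and scipy 1.17.1, and figures drawn with matplotlib 3.10.9. Shares have Clopper-Pearson intervals and medians have order-statistic intervals at 95%. Positions are 1-based. In a simulation on 6825 Ctrl peaks, 1932 of 1932 made narrowings were found with the right side. This checked the code only. Narrow Ctrl peaks were left out, every cut end exceeded the 100 bp limit, and no made DN peak reached past a Ctrl end. Full recovery was thus fixed in advance and gives no accuracy for the real sites.

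Members and choices were made with earlier results of these data known. Named are the 6 strongest sites by the lower of both percentiles, the 6 with most lost bases, the 3 lowest width ratios, 2 on each side of the limit, and the 3 largest falls and rises in percentile. No gene annotation or sequence on GRCz11 was used, so planned comparisons with gene starts and base composition were not made.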

Additional observations from a re-analysis of the deposited data

How the results depend on the processing

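Shares and medians were taken as changed outside the 95% interval of the reported value (for lost bases, as though each site were 1 count), and numbers of sites beyond a factor of 1.5. Of 48 values under 13 alternatives, 32 did not change. The causes of the changes were not tested, except that fewer or more sites follow from a stricter or looser limit. At a width ratio of at most 0.5, 349 sites (3.83% of pairs, 6.44% on chromosome 6) were left, 72.8% lost 1 end only and the median change in rank was 1.85 points. At 0.8 the share of pairs was 10.1%. With an overlap of at least 50% of the narrower peak, 602 sites were left, which did not count as a change. With a −log10 q of at least 4 in both peaks, 29 sites (2.57% of pairs) were left. On chromosome 6 the share was 2.13% of 47 pairs (interval 0.054 to 11.3). Of the 29 sites, 72.4% (interval 52.8 to 87.3) lost 1 end only, and 40.5% (23.5 to 61.1) of lost bases were at the lower end. These intervals include the reported 78.2% and 48.3%, so 29 sites cannot show a difference there. The median change in rank was reversed to −4.38 points (interval −9.65 to −0.020). It was also reversed, to −9.37 points, when only paired peaks were ranked. Counting any inward shift as a loss gave 54.8% of sites with 1 lost end, and counting shifts over 50 bp gave 69.8%. At nearly all of the former the DN peak reached past the other Ctrl end. With the DN list shortened to the number of Ctrl peaks, 382 sites were left. Chromosome 6 had the highest share in 6 of 7 alternatives, all but the filter on −log10 q. With all of chromosome 4 kept, its own share was 11.9% in place of 2.76%. No paired analysis was possible because DN and Ctrl had 1 library each, so no library was left out either. The alternative for gene starts was not run.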
